A study of Mus musculus with 6 samples.

Results

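The 10 genes described here encode the hypoxia-inducible transcription factor subunit HIF1A, its secreted target VEGF-A, the glucose carrier GLUT1 and enzymes that carry glucose to lactate. They were chosen by symbol, Hif1a, Vegfa, Slc2a1, Hk1, Hk2, Pfkl, Pfkp, Aldoa, Pgk1 and Ldha, and not by their values here. Of the 57180 Ensembl mouse gene IDs in the deposited count table, 11 mapped to these symbols, because Aldoa has 2 IDs. All 10 genes passed the low-count filter. The second Aldoa ID (ENSMUSG00000114515) had 0 to 1 counts per HFD+MGIG library and 1 to 9 per HFD library, did not pass, and is not described further.

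The libraries are described as made from adipose tissue macrophages of WT mice on a high-fat diet (HFD). A sort for F4/80 and CD11b, surface proteins of macrophages, is named in the design text, while the labels name RNA from tissue. The diet was common to both groups, which differed in magnesium isoglycyrrhizinate (MGIG), the magnesium salt of an isomer of the liquorice compound glycyrrhizic acid. There were 3 HFD+MGIG libraries and 3 HFD libraries. The labels used here give no dose, duration, age, sex or batch, and do not tie libraries to animals. The p-values therefore cover variation among these libraries alone, and that may be technical.

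Glycolysis splits glucose into pyruvate in the cytosol, and lactate dehydrogenase turns pyruvate into lactate so that the pathway can run on without respiration. HIF1A pairs with ARNT to bind short DNA elements near glycolytic genes and Vegfa. Prolyl hydroxylases mark the HIF1A protein for destruction when oxygen is present, so much of its control lies in protein stability, which RNA levels do not show. Fat tissue of obese mice is known to hold poorly oxygenated regions, and inflammatory activation is known to raise glycolysis in macrophages.

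Library composition differed between the groups. Total counts ranged from 2214367 to 4904167 in HFD+MGIG and from 14437531 to 16740374 in HFD. Protein-coding genes of families that macrophages are not known to use (receptors for smell, pheromones and bitter taste, keratin-associated proteins and beta-defensins; 1598 genes, called silent families here) took 2.94% to 6.43% of counts in HFD+MGIG and 0.0624% to 0.280% in HFD. HFD+MGIG 2 was the shallowest library and had the highest share. A background bound was set for each gene and library as the 90th percentile of counts per kb over these families times the exon length of the gene. The 15 macrophage markers were detected in all libraries, with a summed level of 7585 to 19135 CPM (counts scaled by the library total to a common size) in HFD+MGIG and 17549 to 19773 CPM in HFD. The 12 endothelial markers summed to 567 to 1042 CPM in HFD+MGIG and 2504 to 2929 CPM in HFD, and none was at 0 in any library. The 8 fibroblast markers summed to 1287 to 1943 CPM in HFD+MGIG and 2576 to 3985 CPM in HFD, and the 6 markers of pericytes and smooth muscle to 438.5 to 792 CPM in HFD+MGIG and 1195 to 1848 CPM in HFD, with none at 0. Lower counts of a gene in bulk RNA can come from fewer cells of a type or from less RNA per cell, which cannot be told apart here.

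All 10 genes had a log2 fold change below 0 across the filtered genes. On that scale edgeR called 7 of them lower: Hif1a, Vegfa, Slc2a1, Hk1, Pfkl, Pfkp and Ldha. The HFD+MGIG means of Vegfa, Slc2a1, Hk1 and Pfkl lay below their mean bounds there. Those calls are given as values and not as support. Across all 23053 filtered genes edgeR's quasi-likelihood test called 17.8% lower and 43% higher with MGIG, at a p adjusted by the Benjamini-Hochberg (BH) method under 0.05. The median log2 fold change was −1.17 over the 10 genes and 0.38 over all filtered genes. Because silent-family counts weigh on that scale, a second fit used 2606 protein-coding genes with at least 2 exon blocks whose bound is at most 0.25 of their mean level, called background-limited genes here. On the scale of all filtered genes their median was −0.91, the level against which values on that scale are read here. With library totals in place of TMM factors the second fit called 688 genes lower and 64 higher, beside 163 and 116. Hif1a, Aldoa, Pgk1 and Ldha were in this set. On its own scale edgeR called Hif1a lower, while Aldoa, Pgk1 and Ldha did not pass the threshold, beside 6.25% of the set called lower and 4.45% called higher. The median there was −0.11 over the 4 genes and 0.030 over the set. The rule of the set uses the mean over all 6 libraries, so a gene high in HFD can meet it through HFD alone. Within HFD+MGIG the bound was 0.0678 and 0.0856 of the mean level for Aldoa and Ldha, but 0.261 for Pgk1 and 0.282 for Hif1a, above 0.25. The 4 genes do not stand for all 10, and a lower call of a gene that entered through HFD is given as a value and not as support.

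**Figure D1:**
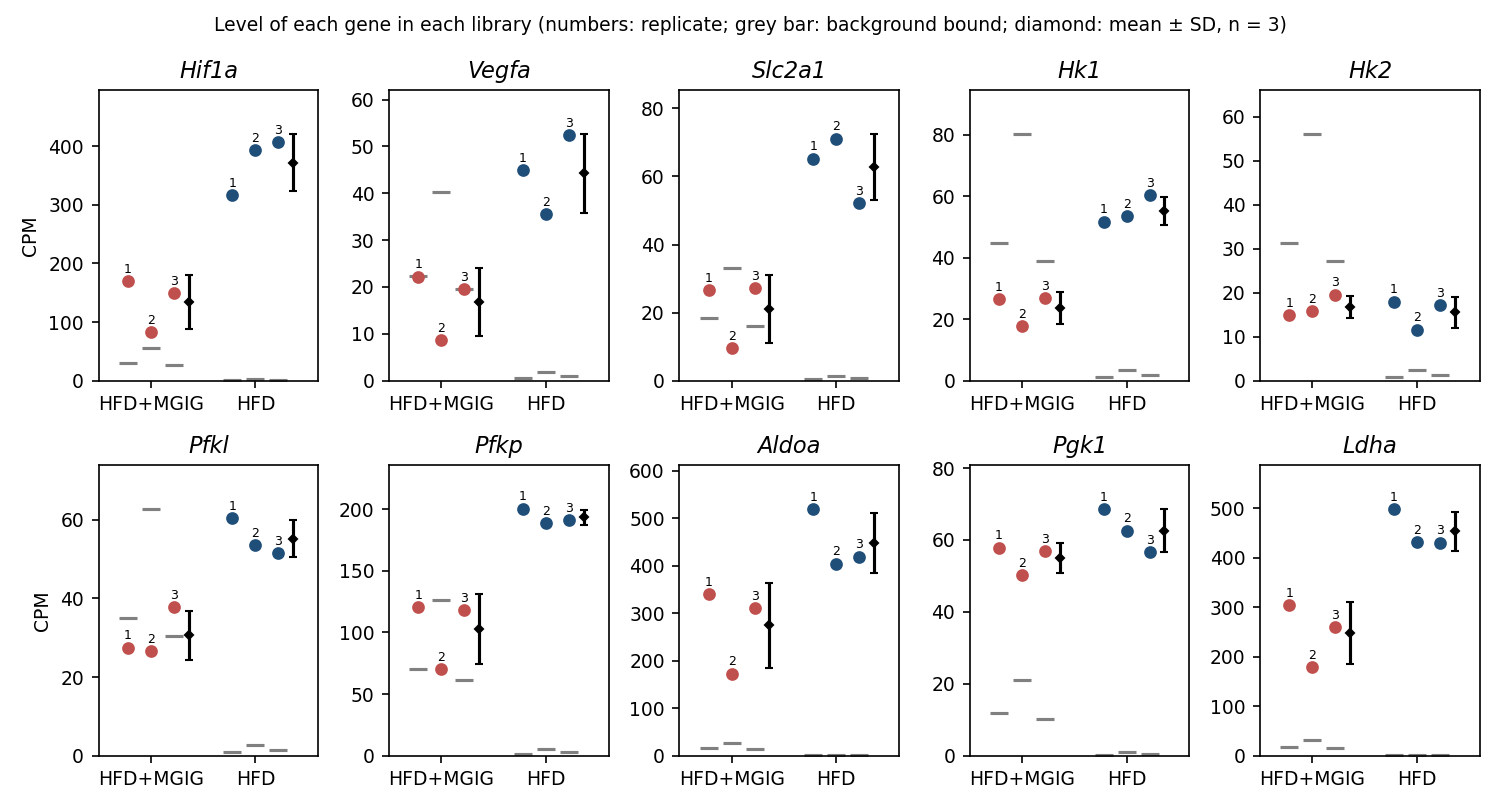
Level of each of the 10 genes in CPM (vertical axis, linear from 0) in the 3 HFD+MGIG libraries (left, red) and the 3 HFD libraries (right, blue), numbered by replicate, with the mean ± SD (diamond) and the background bound of each library (grey bars). Hif1a, Aldoa, Pgk1 and Ldha lie above their bounds in every library, whereas Vegfa, Hk1 and Hk2 lie below theirs in every HFD+MGIG library.

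Hif1a (ENSMUSG00000021109; mm10 chromosome 12, 73901375 to 73947530, plus strand), the oxygen-regulated subunit, had 170, 82.2 and 149 CPM in HFD+MGIG 1, 2 and 3, against 316, 393 and 407 CPM in HFD 1, 2 and 3. The highest HFD+MGIG library lay below the lowest HFD library, and HFD+MGIG 2 was lowest of all. The means were 134 ± 45.8 CPM in HFD+MGIG and 372 ± 48.8 CPM in HFD (SD, n = 3 each), a ratio of 0.359. Over all filtered genes this was a log2 fold change of −1.76 with an SE of 0.470 (edgeR BH-adjusted p = 0.00649). On the background-limited scale, whose rule Hif1a met through its HFD level, it was −0.81 with an SE of 0.142 (edgeR BH-adjusted p = 0.0126). All 6 libraries were above the bound, at a mean bound of 37.8 CPM in HFD+MGIG and 1.5 CPM in HFD. The call among background-limited genes was lost without HFD 2 (edgeR BH-adjusted p = 0.0591) and with the full bound subtracted from the counts (log2 fold change −0.98, edgeR BH-adjusted p = 0.171), a setting in which edgeR called no gene of the set. With trends on GC content and transcript length removed the value was −0.74 (edgeR BH-adjusted p = 0.0120). The summed endothelial, fibroblast and pericyte markers were lower in each HFD+MGIG library than in any HFD library as well, and their part in the values of Hif1a and Vegfa was not tested.

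HIF1A with ARNT binds DNA at a core of ACGTG or GCGTG, so the start-site windows of the genes are shown for the letters they hold. RefSeq windows (build GRCm38.p6, 250 bases before to 50 after a start) were found for all 10 genes, 15 windows in all. Searched on both strands, ACGTG was in 9 of the 15 windows and in 19.6% of all 32817 windows, and either core was in 12 of 15 and in 43.8% of all windows. Among the 9 and the 12 are 2 overlapping Aldoa windows that hold the same match, so that site is counted in both. At least 1 window of each of the 10 genes held either core. The share of all genes with such a window was not computed, and a gene with more windows has more chances to hold one. For Vegfa, Hk1 and Aldoa the window nearest the 5′ end of the gene held neither core. The 15 windows of the 10 genes had a GC content of 51.3% to 69.3%, and motif counts were not matched for it. The following 4 windows are those of Hif1a itself, of the glucose carrier, and of the enzymes Pgk1 and Ldha, whose ratio to each other and to Hif1a is compared among the results, each 5′ to 3′ on the gene's strand with both cores in capitals on either strand. They lie at chr12:73907617-73907916 (plus), chr4:119108495-119108794 (plus), chrX:106186850-106187149 (plus) and chr7:46845554-46845853 (plus).
Hif1a: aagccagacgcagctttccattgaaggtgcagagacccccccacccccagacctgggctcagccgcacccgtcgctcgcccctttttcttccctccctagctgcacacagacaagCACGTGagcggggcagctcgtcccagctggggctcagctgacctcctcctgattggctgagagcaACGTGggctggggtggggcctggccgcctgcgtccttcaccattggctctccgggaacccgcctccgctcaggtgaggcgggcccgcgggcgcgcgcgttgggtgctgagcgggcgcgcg
Slc2a1: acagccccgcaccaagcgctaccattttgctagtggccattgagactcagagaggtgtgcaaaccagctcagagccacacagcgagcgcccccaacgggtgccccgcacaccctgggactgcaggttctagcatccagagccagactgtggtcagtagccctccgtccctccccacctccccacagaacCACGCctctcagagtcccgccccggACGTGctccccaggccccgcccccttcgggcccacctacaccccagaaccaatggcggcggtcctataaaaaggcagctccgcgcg
Pgk1: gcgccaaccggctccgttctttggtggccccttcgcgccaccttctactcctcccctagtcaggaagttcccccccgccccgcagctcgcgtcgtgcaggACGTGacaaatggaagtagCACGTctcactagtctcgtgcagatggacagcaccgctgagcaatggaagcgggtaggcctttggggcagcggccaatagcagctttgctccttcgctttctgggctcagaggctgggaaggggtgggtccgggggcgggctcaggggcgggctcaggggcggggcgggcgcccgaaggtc
Ldha: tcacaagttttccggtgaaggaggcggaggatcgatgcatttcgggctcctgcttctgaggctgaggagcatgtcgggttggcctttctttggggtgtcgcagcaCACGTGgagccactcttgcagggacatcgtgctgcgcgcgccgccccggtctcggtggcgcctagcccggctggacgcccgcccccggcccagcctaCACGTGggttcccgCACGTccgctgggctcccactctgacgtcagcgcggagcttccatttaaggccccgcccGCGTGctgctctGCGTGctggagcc
The Ldha window held ACGTG at 5 places, counting each strand, which include 2 copies of CACGTG, where the core reads on both strands and which other factors also bind. The Hif1a window held 3, with 1 copy of CACGTG, Pgk1 held 2 and Slc2a1 held 1. A match is a run of letters and not a site shown to be bound.

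Vegfa, which encodes the growth factor that drives vessel growth, had 22.2, 8.58 and 19.6 CPM in HFD+MGIG 1, 2 and 3, against 44.9, 35.6 and 52.4 CPM in HFD 1, 2 and 3. The groups did not overlap, but all 3 HFD+MGIG values were below their bounds of 22.4, 40.3 and 19.6 CPM, the third by less than the rounding. Its log2 fold change was −1.64 (SE 0.381, edgeR BH-adjusted p = 0.00276) over all filtered genes. At a bound of 0.467 of its mean level it was outside the background-limited set. In a wider set of 4799 genes with a bound of at most 0.5 of the mean, added after the data were seen, Vegfa had −0.77 (SE 0.210, edgeR BH-adjusted p = 0.0525) and did not pass.

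Slc2a1 (ENSMUSG00000028645; mm10 chromosome 4, 119108711 to 119137983, plus strand) encodes GLUT1, the carrier that brings glucose across the plasma membrane of many cell types, and is known to be strong in endothelium and red cell precursors as well. It had 26.5, 9.48 and 27.1 CPM in HFD+MGIG 1, 2 and 3, against 65.2, 71.1 and 52.1 CPM in HFD 1, 2 and 3. The groups did not overlap, and HFD+MGIG 2 was below its bound of 33.0 CPM. The log2 fold change was −1.82 (SE 0.413, edgeR BH-adjusted p = 0.00234) over all filtered genes, the lowest of the 10. With a bound of 0.278 of its mean level Slc2a1 lay just outside the background-limited set. In the wider set it had −0.95 (SE 0.224, edgeR BH-adjusted p = 0.0330), where 4.90% of genes were called lower, and Hif1a had −0.85 (edgeR BH-adjusted p = 0.0121). Slc2a1 met the rule of that set through HFD alone, since its HFD+MGIG mean of 21 CPM was below the mean bound of 22.4 CPM, so the call is no support for a lower level. There Slc2a1 missed the threshold when HFD 1, HFD 2, HFD 3 or HFD+MGIG 1 was left out (edgeR BH-adjusted p = 0.113, 0.129, 0.0611 and 0.0639), and so did Hif1a when HFD 2 or HFD 3 was (0.0691 and 0.0611). The summed endothelial markers given above were lower in HFD+MGIG, while 5 red cell genes summed to 1236 to 1446 CPM in HFD+MGIG and 1346 to 2636 CPM in HFD, ranges that overlap. Their part in the Slc2a1 values was not tested.

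The hexokinases trap glucose in the cell as glucose 6-phosphate, and Hk1 passed the test while Hk2 did not, a difference between the genes that was not itself tested. Hk1, the form of most tissues, had 26.5, 17.6 and 26.9 CPM in HFD+MGIG 1, 2 and 3, against 51.7, 53.5 and 60.3 CPM in HFD 1, 2 and 3. Its log2 fold change over all filtered genes was −1.50 (SE 0.317, edgeR BH-adjusted p = 0.00145). Hk2, the form known to be induced by HIF1A and insulin, had 14.9, 15.8 and 19.6 CPM in HFD+MGIG 1, 2 and 3, against 18, 11.6 and 17.2 CPM in HFD 1, 2 and 3. The Hk2 groups overlapped, and the log2 fold change of −0.19 (SE 0.303, edgeR BH-adjusted p = 0.592) turned to 0.11 when libraries were scaled by their totals. Every HFD+MGIG value of both genes was below its bound, 39.0 to 80.3 CPM for Hk1 and 27.3 to 56.1 CPM for Hk2, so their levels in HFD+MGIG cannot be told apart from the silent-family background.

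Phosphofructokinase commits the sugar to glycolysis, and Pfkl and Pfkp encode its liver and platelet forms. Pfkp had 121, 70 and 118 CPM in HFD+MGIG 1, 2 and 3, against 200.4, 189 and 191 CPM in HFD 1, 2 and 3. Pfkl had 27.5, 26.6 and 37.7 CPM in HFD+MGIG 1, 2 and 3, against 60.4, 53.5 and 51.5 CPM in HFD 1, 2 and 3. Neither gene's groups overlapped. Over all filtered genes the log2 fold change was −1.15 for Pfkl (SE 0.294, edgeR BH-adjusted p = 0.00505) and −1.19 for Pfkp (SE 0.404, edgeR BH-adjusted p = 0.0231). Both were close to the median of −0.91 of the background-limited genes. Pfkp missed the threshold when HFD 1, HFD 2, HFD 3 or HFD+MGIG 3 was left out (edgeR BH-adjusted p = 0.0504, 0.0595, 0.0681 and 0.0724), and in the wider set it had −0.27 (SE 0.128, edgeR BH-adjusted p = 0.219). HFD+MGIG 3 was the 1 library of that group in which Pfkl was above its bound, and HFD+MGIG 2 the 1 in which Pfkp was below.

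Aldoa (ENSMUSG00000030695; mm10 chromosome 7, 126795234 to 126800751, minus strand), the aldolase that cleaves the phosphorylated sugar, had 341, 173 and 311 CPM in HFD+MGIG 1, 2 and 3, against 519.8, 405 and 419 CPM in HFD 1, 2 and 3. Ldha (ENSMUSG00000063229; mm10 chromosome 7, 46841475 to 46855627, plus strand), the lactate dehydrogenase subunit that prevails in glycolytic cells, had 304, 179 and 260 CPM in HFD+MGIG 1, 2 and 3, against 498, 431 and 431 CPM in HFD 1, 2 and 3. The groups did not overlap in CPM for either gene. Over all filtered genes Aldoa had −0.97 (SE 0.462, edgeR BH-adjusted p = 0.0828) and Ldha −1.15 (SE 0.444, edgeR BH-adjusted p = 0.0395). Among the background-limited genes Aldoa had −0.035 (SE 0.138, edgeR BH-adjusted p = 0.894) and Ldha −0.18 (SE 0.132, edgeR BH-adjusted p = 0.436), which are differences smaller than 2 standard errors. Over all filtered genes Ldha missed the threshold when HFD 1, HFD 2, HFD 3 or HFD+MGIG 3 was left out (edgeR BH-adjusted p = 0.0920, 0.0892, 0.104 and 0.130), while Aldoa was called by DESeq2 and limma voom and without HFD+MGIG 2 (adjusted p = 0.0144, 0.00573 and 0.00869).

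Pgk1 (ENSMUSG00000062070; mm10 chromosome X, 106187100 to 106203699, plus strand), phosphoglycerate kinase, makes the first ATP that glycolysis returns. It had 57.8, 50.1 and 56.9 CPM in HFD+MGIG 1, 2 and 3, against 68.6, 62.6 and 56.5 CPM in HFD 1, 2 and 3. The groups overlapped in CPM, since HFD+MGIG 1 and 3 were above HFD 3. Over all filtered genes its log2 fold change was −0.49 (SE 0.299, edgeR BH-adjusted p = 0.165). On the background-limited scale it was 0.54 (SE 0.200) and did not pass, with an unadjusted p = 0.0261 and an edgeR BH-adjusted p = 0.130. Its sign there turned to −0.19 when libraries were scaled by their totals. Near-identical processed copies of glycolytic genes are common in mouse, and how the counting split reads between Pgk1, Aldoa or Ldha and such copies is not given in the sources used here.

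**Figure D2:**
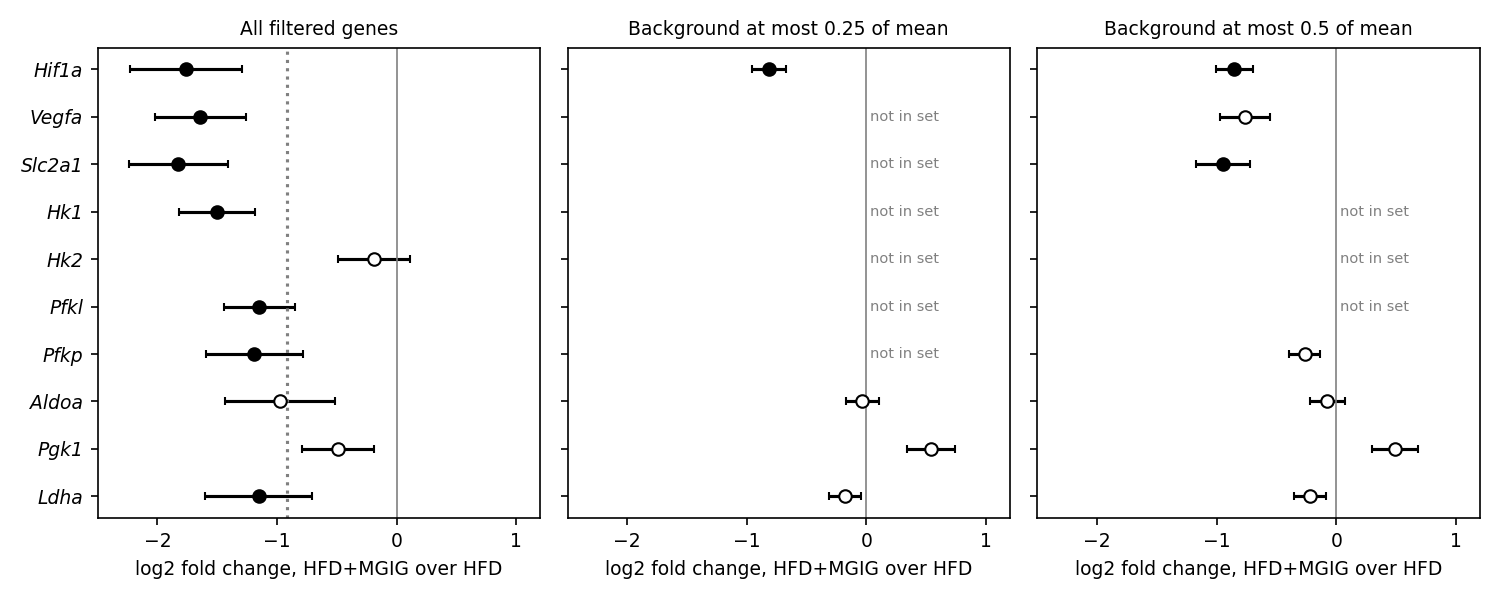
Log2 fold change of HFD+MGIG over HFD (horizontal axis) with its standard error for each gene over all filtered genes (left), among background-limited genes (middle) and in the wider set (right), with filled points past an edgeR BH-adjusted p of 0.05 and a dotted line at the −0.91 median of background-limited genes. Hif1a lies below 0 in all 3 panels, while Aldoa and Ldha lie close to 0 in the middle one.

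The groups did not overlap in CPM for 8 of the 10 genes, all but Hk2 and Pgk1, and all 8 were lower in HFD+MGIG. Such groups were common: among all filtered genes 72.6% had them, 23.7% lower and 48.9% higher, and among the background-limited genes 70.8%, with 68.1% lower and 2.72% higher. A ratio between 2 genes of the same library is free of the scaling between libraries. Ldha was taken as the common denominator, a choice made after the values were seen, and 38.8% of the background-limited genes had groups that did not overlap in that ratio. Hif1a had 0.559, 0.458 and 0.574 counts per Ldha count in HFD+MGIG 1, 2 and 3, against 0.634, 0.911 and 0.945 in HFD 1, 2 and 3. The Hif1a ratio was thus lower in each HFD+MGIG library than in any HFD library, which 7.06% of the background-limited genes shared (exact permutation test, two-sided, p = 0.1, which is the minimum for groups of this size). Pgk1 had 0.190, 0.280 and 0.219 counts per Ldha count in HFD+MGIG 1, 2 and 3, against 0.138, 0.145 and 0.131 in HFD 1, 2 and 3. Slc2a1 averaged 0.0815 ± 0.0262 counts per Ldha count in HFD+MGIG and 0.139 ± 0.0230 in HFD (SD, n = 3 each), again with no overlap (exact permutation p = 0.1). The Pgk1 order, higher in each HFD+MGIG library, was shared by 31.7% of the background-limited genes (exact permutation p = 0.1). For Aldoa the ratio to Ldha averaged 1.09 ± 0.118 in HFD+MGIG and 0.985 ± 0.053 in HFD (SD, n = 3 each), with overlapping groups (exact permutation p = 0.3). Pfkp and Pfkl averaged 0.414 ± 0.0353 and 0.128 ± 0.0326 counts per Ldha count in HFD+MGIG, against 0.428 ± 0.0227 and 0.122 ± 0.00232 in HFD, with overlapping groups as well. Vegfa and Hk1 had lower ratios in each HFD+MGIG library than in any HFD library and Hk2 had higher ones (log2 ratios −0.59, −0.34 and 1.03, exact permutation p = 0.1 each), with HFD+MGIG levels below the bound. The Slc2a1 ratio has the same limit, since its HFD+MGIG mean of 21 CPM was below the mean bound of 22.4 CPM. The letters of the start-site windows printed above were not tested against these ratios.

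Genes of the same step were also set against each other as shares of counts per kb of exon, again after the values were seen. Among Hk1, Hk2 and Hk3, the last a form found in white blood cells, Hk3 held the largest share in every library. In HFD+MGIG, however, Hk3 had a mean of 21.4 CPM beside a mean bound of 23.6 CPM, and 10.8 CPM beside a bound of 34.6 CPM in HFD+MGIG 2. With Hk1 and Hk2 below their bounds there as well, the HFD+MGIG shares cannot be told apart from shares of background. Hk3 made up 52.8%, 38.4% and 56.0% in HFD+MGIG 1, 2 and 3 and 48.2%, 54.5% and 53.3% in HFD 1, 2 and 3. Hk2 made up 21%, 34.6% and 22.4% in HFD+MGIG 1, 2 and 3, above the 17.2%, 10.8% and 13.5% in HFD 1, 2 and 3 (exact permutation p = 0.1). With the median silent-family rate of each library subtracted, the Hk2 groups overlapped (21.5% ± 8.61 in HFD+MGIG and 13.7% ± 3.40 in HFD, exact permutation p = 0.2), and those of Hk3 no longer did (65.2% ± 3.18 in HFD+MGIG and 52.1% ± 3.47 in HFD, exact permutation p = 0.1). Hk1 was then left with 22.5%, 0% and 17.2% in HFD+MGIG 1, 2 and 3. Pfkp held 57.1% ± 2.86 of the phosphofructokinase counts per kb in HFD+MGIG and 57.5% ± 1.23 in HFD, beside Pfkl and the muscle form Pfkm. With the same subtraction Pfkp held 65.8% ± 3.77 in HFD+MGIG and 57.6% ± 1.23 in HFD, and the groups no longer overlapped (exact permutation p = 0.1). The share of Pfkl was then 32.7% ± 6.24 in HFD+MGIG and 32.8% ± 1.25 in HFD, while Pfkm, below its bound in every HFD+MGIG library, was left with 4.41%, 0% and 0.229% in HFD+MGIG 1, 2 and 3 and 9.20% to 10.4% in HFD.

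Slc2a1 made up 44.3%, 26.3% and 51.4% of the summed counts per kb of Slc2a1, Slc2a3 and Slc2a6 in HFD+MGIG 1, 2 and 3, against 66.2%, 67.2% and 55.4% in HFD 1, 2 and 3. Slc2a3, which encodes the high-affinity carrier GLUT3, made up 43.8%, 64.2% and 36.8% in HFD+MGIG 1, 2 and 3, against 20.2%, 24.3% and 34.6% in HFD 1, 2 and 3. Neither pair of groups overlapped (exact permutation p = 0.1 each), while with the median background subtracted those of Slc2a1 did (exact permutation p = 0.2). In CPM Slc2a3 had 47.4 ± 7.04 in HFD+MGIG and 53.8 ± 13.0 in HFD (SD, n = 3 each), with a mean bound of 46.4 CPM in HFD+MGIG. Ldha held 92.7% ± 1.00 of the counts per kb of Ldha and Ldhb in HFD+MGIG and 96.0% ± 0.953 in HFD, groups that overlapped once the median background was subtracted.

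**Figure D3:**
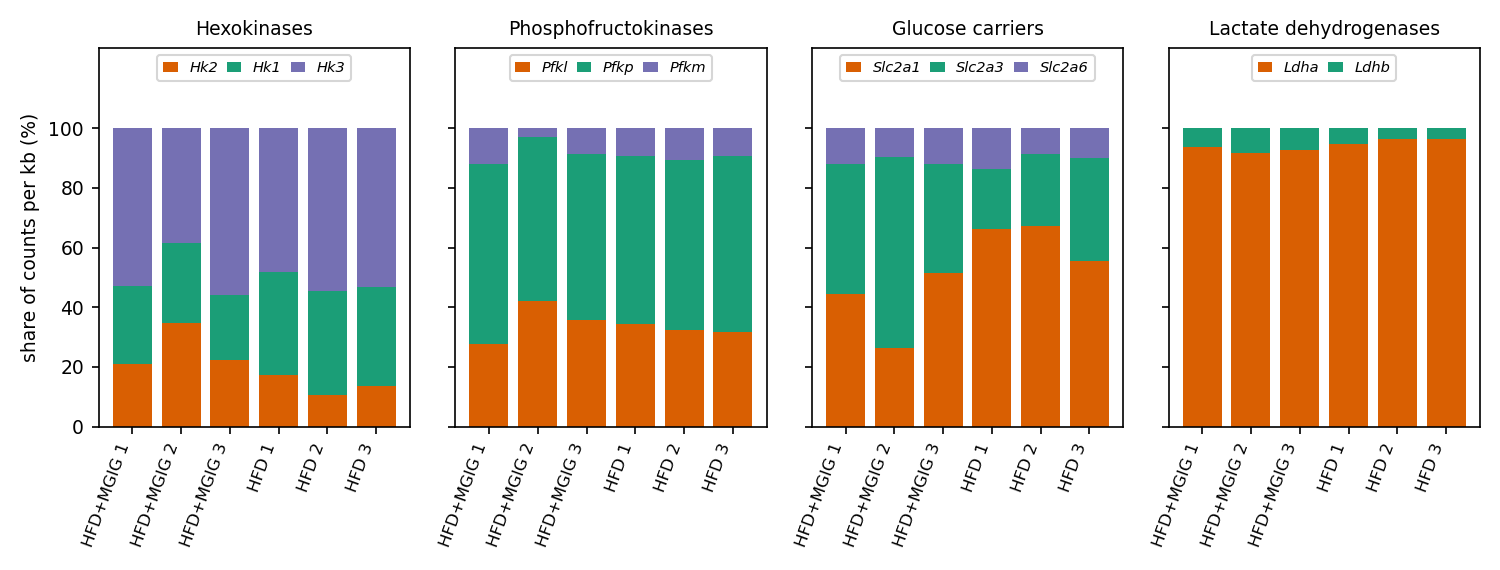
Share of counts per kb of exon (vertical axis, percent) held by each gene of a step in the 3 HFD+MGIG and the 3 HFD libraries, one bar per library, for hexokinases, phosphofructokinases, glucose carriers and lactate dehydrogenases. The Slc2a1 segment is shortest in HFD+MGIG 2 at 26.3%, where Slc2a1 lay below its bound. The Ldha segment is at least 91.7% in every library.

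Per kb of exon, Aldoa and Ldha had the highest levels of the 10 genes in both groups. In HFD+MGIG Aldoa and Ldha led with 94.4 ± 30.7 and 74.8 ± 19.1 CPM per kb, ranges that overlapped, followed by Pgk1 with 24.5 ± 1.87 and Hif1a with 22.7 ± 7.76, which overlapped too. In HFD Aldoa and Ldha had 154 ± 21.5 and 137 ± 11.8 CPM per kb, with overlapping ranges, and Hif1a with 63.1 ± 8.27 lay above Pgk1 with 27.9 ± 2.70 without overlap. From Pfkp at 7.69 ± 2.13 CPM per kb down to Hk1 at 2.78 ± 0.616, each neighbour in HFD+MGIG overlapped the next. The bound was 5.23, 9.41 and 4.57 CPM per kb in HFD+MGIG 1, 2 and 3. Slc2a1, Pfkl, Vegfa, Hk2 and Hk1 had HFD+MGIG means below their mean bounds. Their order in that group cannot be told apart from background. In HFD the lower part of the order was Slc2a1, Pfkp, Vegfa, Pfkl, Hk1 and Hk2, from 17.9 ± 2.77 to 2.61 ± 0.587 CPM per kb, where Slc2a1 overlapped Pfkp and Vegfa overlapped Pfkl. Reads on exons shared with another gene cannot be assigned without strand. The largest overlap was that of Pfkp with Pitrm1 on the opposite strand, 748 of 13401 exon bases, followed by Hif1a with the antisense gene Gm15283, 330 of 5896 bases.

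The HIF subunits other than HIF1A, and the enzymes that sense oxygen, were a list of their own. Of 8 tested genes of HIF subunits and oxygen sensors, 4 were lower (Arnt, Egln1, Egln2 and Epas1) and 1 higher over all filtered genes, beside 17.8% and 43% of all those genes. The median log2 fold change was −0.71, above the −0.91 of the background-limited genes. Epas1, which encodes the related subunit HIF2A and is strong in endothelium, had 48.2, 24.4 and 48.9 CPM in HFD+MGIG 1, 2 and 3, against 122, 135 and 128 CPM in HFD 1, 2 and 3. HFD+MGIG 2 was below its bound of 52.6 CPM. Epas1 was the 1 gene of the list among the background-limited genes, with a log2 fold change of −0.99 there (SE 0.134, edgeR BH-adjusted p = 0.00713). It met the rule of the set through HFD alone, since within HFD+MGIG the bound was 0.884 of its mean level, so the call is no support for a lower level. The endothelial markers had lower sums in HFD+MGIG as given above, and their part in Epas1 was not tested. Of the 7 endothelial markers in the set edgeR called 6 lower, of which Plvap and Esam, named after their values were seen, were the 2 with a bound within 0.25 of their HFD+MGIG level. Egln3, a prolyl hydroxylase that is itself a HIF target and was named after its value was seen, was the higher gene, at 5.95 ± 3.86 CPM in HFD+MGIG and 1.34 ± 0.400 CPM in HFD, below its HFD+MGIG bound of 17 CPM.

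Other HIF target genes were called in both directions only among the background-limited genes. Of 20 tested over all filtered genes 9 were lower and 0 higher, beside 17.8% and 43% of all those genes, with a median of −0.76 beside the −0.91 of the background-limited genes. Of 8 in that set edgeR called 2 lower and 1 higher, beside 6.25% and 4.45% of the set, at a median of 0.074 beside 0.030. Bhlhe40, a transcriptional repressor, had 170, 115 and 169 CPM in HFD+MGIG 1, 2 and 3, against 362, 409 and 364 CPM in HFD 1, 2 and 3 (log2 fold change −0.61, SE 0.140, edgeR BH-adjusted p = 0.0276 among background-limited genes). Ndrg1, a gene known for its strong response to low oxygen, had 113, 54.6 and 104 CPM in HFD+MGIG 1, 2 and 3, against 249, 268 and 209 CPM in HFD 1, 2 and 3 (−0.75, SE 0.141, edgeR BH-adjusted p = 0.0141). Both genes had groups that did not overlap. HFD+MGIG 2 was below its bound of 62 CPM for Ndrg1, and within HFD+MGIG the bound was 0.466 of the mean level for Ndrg1 and 0.199 for Bhlhe40. Ndrg1 thus met the rule of the set through HFD alone, and its call is no support for a lower level. The part of the fibroblast, pericyte and endothelial markers in both genes was not tested.

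Hmox1, the haem-degrading enzyme, which is also a target of NRF2, had 1409, 609 and 1486 CPM in HFD+MGIG 1, 2 and 3, against 985, 1133 and 1269 CPM in HFD 1, 2 and 3. It was higher among the background-limited genes (0.69, SE 0.177, edgeR BH-adjusted p = 0.0426) and had −0.23 (SE 0.534, edgeR BH-adjusted p = 0.716) over all filtered genes, so its direction rests on the scale. HFD+MGIG 2 lay below every HFD library, and HFD+MGIG 1 and 3 lay above every one. Hmox1 missed the threshold when any one of the other 5 libraries was left out (edgeR BH-adjusted p = 0.0786 to 0.161), and so did Bhlhe40 (0.0747 to 0.130). Both passed without HFD+MGIG 2. Ndrg1 lost its call without HFD 1 or HFD 2 (0.0585 and 0.0734).

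The other glycolytic enzymes had fold changes near those of Aldoa and Ldha where background was limited. Of 16 tested over all filtered genes edgeR called 5 lower and 2 higher, beside 17.8% and 43% of all those genes, at a median of −0.94, close to the −0.91 of the background-limited genes. Gapdh, which oxidises the triose phosphate, had 298, 191 and 292 CPM in HFD+MGIG 1, 2 and 3, against 537, 458 and 423 CPM in HFD 1, 2 and 3 (−0.16, SE 0.145, edgeR BH-adjusted p = 0.527 among background-limited genes). Pkm, pyruvate kinase, had 330, 125 and 309 CPM in HFD+MGIG 1, 2 and 3, against 496, 460 and 459 CPM in HFD 1, 2 and 3 (−0.26, SE 0.161, edgeR BH-adjusted p = 0.344). Of the other 4 enzymes in that set, Gpi1, Tpi1, Pgam1 and Eno1 had log2 fold changes of −0.0015, −0.071, 0.074 and −0.11. The 2 higher genes, named after their values were seen, were the enolase copy Eno1b and the testis form Pgk2, which has 1 exon block. Eno1b had 7.71, 56.0 and 34.1 CPM in HFD+MGIG 1, 2 and 3 and 0.693 to 1.13 CPM in HFD, while Eno1 itself was lower in each HFD+MGIG library than in any HFD library. Reads of such copies can be split by the counting, so both are uncertain.

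Carriers, flux control and side branches had no gene past the threshold among the background-limited genes. Together with the glycolytic enzymes and the VEGF genes these 6 lists had 17 genes in that set, of which edgeR called 0 in either direction. Beside this, 6.25% of the whole set was called lower and 4.45% higher, so 0 of 17 is not read as a lack of change. The number at an unadjusted p under 0.05 was 1 with edgeR, 2 with DESeq2 and 1 with limma voom, and those other tools called 0 as well. Over the whole set 658 of 2606 genes had an unadjusted p under 0.05 with edgeR. Over all filtered genes edgeR called 29 of the 67 tested genes of these lists lower and 6 higher, beside 17.8% and 43% of all those genes. Within HFD+MGIG the bound was 0.0863 (Bsg) to 14.6 (Flt4) of the mean level for the 29 lower genes. For the 6 higher genes it was 0.369 (Eno1b) to 6.23 (Slc5a1). Many of these genes thus lay below background there, and the counts are given as values and not as support. Bsg, the chaperone of lactate carriers, had 135 ± 46.9 CPM in HFD+MGIG and 245 ± 20 CPM in HFD (−0.20, edgeR BH-adjusted p = 0.348). Txnip, an inhibitor of glucose uptake, had 839 ± 424 CPM in HFD+MGIG and 1854 ± 206 CPM in HFD (−0.54, SE 0.206, unadjusted p = 0.0280, edgeR BH-adjusted p = 0.135). Pdk4, a kinase that shuts off pyruvate dehydrogenase, had 111 ± 51.1 CPM in HFD+MGIG and 210 ± 9.01 CPM in HFD (−0.29, edgeR BH-adjusted p = 0.315). G6pdx and Taldo1 of the pentose phosphate pathway had −0.0077 and −0.29 (edgeR BH-adjusted p = 0.981 and 0.336).

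Of gluconeogenesis, Pck1, which is high in adipocytes, had 60.8 ± 18.8 CPM in HFD+MGIG and 174 ± 77.4 CPM in HFD (background-limited log2 fold change −0.81, SE 0.390, edgeR BH-adjusted p = 0.253), and Pck2 had 21.3 ± 2.34 CPM in HFD+MGIG and 24.1 ± 2.46 CPM in HFD, below a bound of 50 CPM in HFD+MGIG. The 8 adipocyte markers summed to 1906 to 2633 CPM in HFD+MGIG and 4164 to 6532 CPM in HFD, and their part in Pck1 was not tested. Of 9 tested genes of the VEGF family and its receptors 6 were lower and 0 higher over all filtered genes, beside 17.8% and 43% of all those genes, with a median of −1.42 beside the −0.91 of the background-limited genes. For these 6 genes the HFD+MGIG bound was 0.943 (Kdr) to 14.6 (Flt4) of the HFD+MGIG mean level. Their HFD+MGIG levels thus lay close to or below the silent-family background, and the calls are given as values and not as support. Kdr, the main VEGF receptor of endothelium, had 61.3 ± 24.0 CPM in HFD+MGIG and 178 ± 23.1 CPM in HFD (−1.83, SE 0.417, edgeR BH-adjusted p = 0.00237), and is itself 1 of the endothelial markers. Nrp1, a co-receptor, had 243 ± 105 CPM in HFD+MGIG and 382 ± 13.9 CPM in HFD, with −0.021 (edgeR BH-adjusted p = 0.942) among the background-limited genes.

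**Figure D4:**
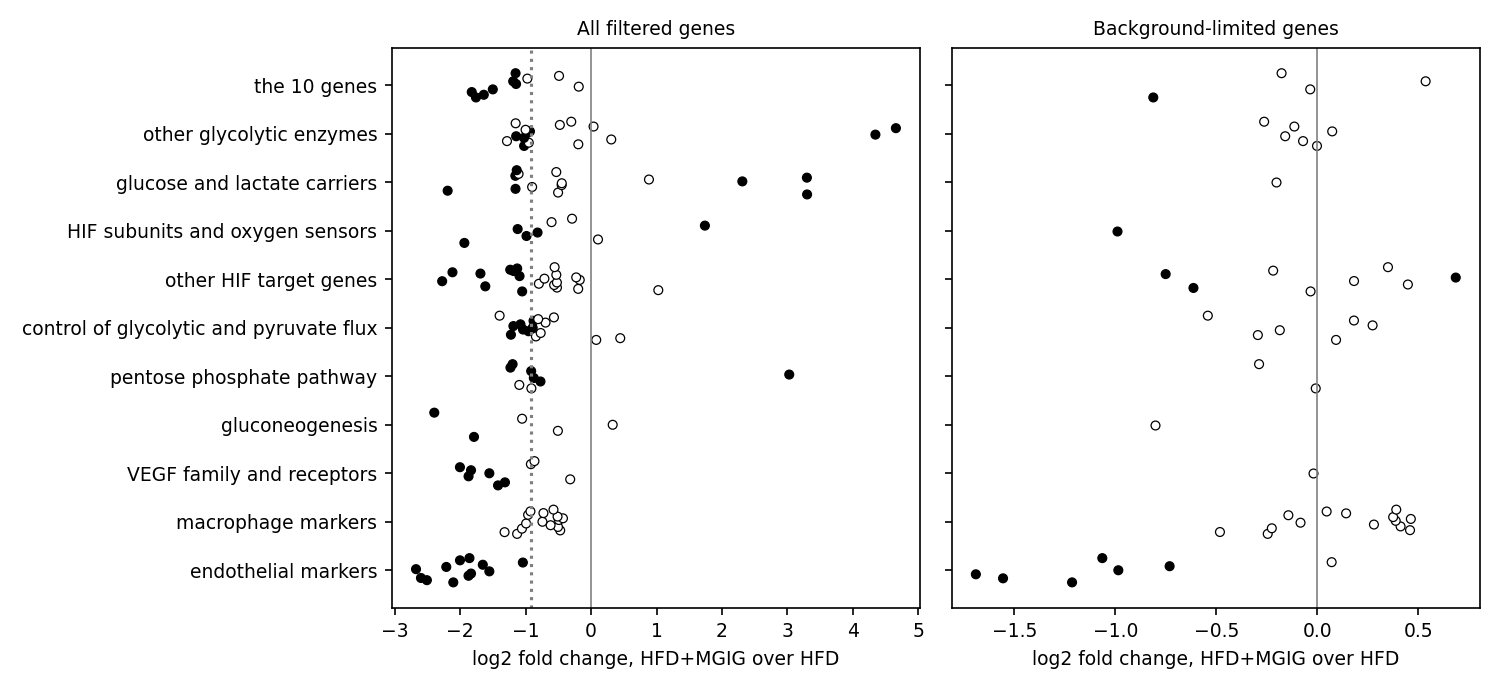
Log2 fold change of HFD+MGIG over HFD (horizontal axis) of each tested gene of the 10 genes, 8 pathway lists and 2 marker lists, over all filtered genes (left) and among background-limited genes (right), with filled points past an edgeR BH-adjusted p of 0.05 and a dotted line at −0.91. Among background-limited genes the other glycolytic enzymes lie between −0.26 and 0.074, while 6 of 7 endothelial markers are filled and below 0, 4 of which met the rule of the set through their HFD levels.

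The genes whose pattern over the 6 libraries lay nearest to that of Hif1a were sought among the background-limited genes by the root mean square difference of log2 CPM, each centred on its own mean. They were Ids, a lysosomal sulfatase, Fbln5, an elastic fibre protein, and Eif4g2, a translation factor, at 0.0709, 0.0893 and 0.0896 log2 units. Ldha, Aldoa and Pgk1 were at 0.378, 0.449 and 0.745 log2 units, ranks 722, 1156 and 2392 of 2605. Ids had 58.1, 28.9 and 55.9 CPM in HFD+MGIG 1, 2 and 3, against 124, 136 and 151 CPM in HFD 1, 2 and 3, low in the same libraries as Hif1a. HFD+MGIG 2 was below its bound of 48.0 CPM for Ids, and the mean bound in HFD+MGIG was 32.7 CPM beside a mean level of 47.6 CPM. Ids thus met the rule of the set through HFD alone, and its likeness to Hif1a is given as a value and not as support.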

How the data were processed

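The authors deposited 1 table for 3 HFD+MGIG and 3 HFD libraries, whose values are estimated counts; per library 33.3% to 41.8% of detected genes had a fraction. Per the labels' protocols, RNA was taken up with TRIzol and libraries were made with a low-input SMART-Seq v4 kit, which amplifies cDNA. Per the submitters' processing notes, fastp, HISAT2, StringTie and build mm10 were used; no source used here gives versions, strand or the counting program. GENCODE M21 (mm10) named 51884 of 57180 IDs.

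Estimated counts were rounded and tested with edgeR 4.0.16 (R 4.3.3; robust quasi-likelihood fit, TMM factors, filterByExpr, group as the only term), with Benjamini-Hochberg adjustment over all genes of a fit and a threshold of 0.05. CPM were scaled by library totals. The deep HFD libraries give more precise values than HFD+MGIG 2. The fits were run on simulated counts drawn from HFD rates at the totals of the 6 libraries. These held no added silent-family background in HFD+MGIG, so they do not show how the fits behave with it. Alternatives included DESeq2 1.42.0 and limma 3.58.1 voom. Genes named were the 10 genes, pathway genes called among background-limited genes, otherwise the 2 most abundant of a list, and the 3 nearest to Hif1a; other genes were named after their values were seen. The 10 genes, lists and tests were chosen with earlier results of these data known.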

Additional observations from a re-analysis of the deposited data

How the results depend on the processing

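Over all filtered genes, 7 of the 10 genes were called in edgeR's test, 6 with a minimum of 5 CPM in 3 libraries or the replicate block, 8 with DESeq2 or voom, and 5 to 8 with 1 library left out. Among background-limited genes 1 was called (Hif1a), 2 in the wider set (bound of at most 0.5 of the mean), 0 with the full bound subtracted, and 0 to 1 with 1 library left out. Pathway genes called numbered 49 over all filtered genes (30 to 66 with 1 library left out, 30 without HFD+MGIG 3, 31 without HFD 3) and 4 among background-limited genes (1 to 4, with 1 without HFD 1). Uncalled values changed sign as follows. Hk2 over all filtered genes had 0.11 with library totals, 0.21 with the 5 CPM minimum and 0.036 with voom. Among background-limited genes Pgk1 had −0.19 with library totals, Ldha had 0.23 with the full bound subtracted, and Aldoa had 0.053 with voom, 0.071 and 0.37 with the median and full background subtracted, 0.040 with GC and length trends removed and 0.063 without HFD 1 (−0.11 to 0.063 with 1 library left out). Over all genes of a fit, the calls numbered 14011 among all filtered genes, 23169 with no filter and 6153 with the 5 CPM minimum. They numbered 279 among background-limited genes, 752 with library totals (median −0.63), 454 with voom, 106 in a stricter set (bound of at most 0.1) and 461 in the wider set, and 66 to 343 with 1 library left out. The cause of these changes was not tested, beyond the smaller or larger sets of genes and libraries. Same-numbered libraries correlated at 0.0784, 0.284 and 0.0705 in their deviations from the group means, not every library correlated best with its own number, and the numbers were not taken as pairs. With the replicate block the Ldha call over all filtered genes was lost (−1.22, edgeR adjusted p = 0.0685) and 3 pathway genes were called among background-limited genes. The wider set, the GC and length trends and the subtraction in shares were chosen after seeing the data. The depth of HFD+MGIG 2, with 19 Vegfa and 21 Slc2a1 counts, limits those values.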
